A study of Mus musculus with 15 samples.

Results

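Cadherin and protocadherin genes were followed through 8 sorted populations of a mouse embryonic stem cell differentiation. The set was chosen by gene symbol and holds 10 genes of 56092 named genes: the classical cadherins Cdh1, Cdh2, Cdh3, Cdh4, Cdh6 and Cdh11, and the non-clustered protocadherins Pcdh7, Pcdh8, Pcdh10 and Pcdh19. Each symbol was found on 1 row of the table. The cells were STR-KI, a single mouse embryonic stem cell line in which 1 allele of Sox2 carries mCherry and 1 allele of Tbxt (Brachyury) carries GFP, with the other alleles wild type (Sox2::mCherry/WT, Tbxt::GFP/WT). All 8 groups share that genotype and an induction in N2B27 medium, with 10 ng/mL FGF2 for 48 h and then with FGF2 plus the WNT pathway activator CHIR (5 µM) for 24 h. It yields neuromesodermal progenitors (NMPs), bipotent tail-end cells that feed both the spinal cord and the somite-forming mesoderm. NMPs were the cells positive for both reporters (3 libraries). After 48 h of culture in FGF/CHIR, cells were sorted for mCherry (Sox2 48 h, 2 libraries) or for GFP (Tbxt 48 h, 2 libraries). Cells derived from mCherry-positive cells were cultured for 7 d and sorted as mCherry-positive or double negative (DN): FGF/CHIR Sox2+ (1 library), FGF/CHIR DN (1 library), FGF Sox2+ (2 libraries) and FGF DN (1 library). The last group, Tbxt 7 d (3 libraries), holds DN cells of 7 d FGF/CHIR cultures that had been started from GFP-positive cells. From which step the 7 d are counted, and whether libraries of a group are separate cultures, is not stated in the labels, so p-values measure only the spread between these libraries, which may be technical.

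Classical cadherins are calcium-dependent adhesion molecules that bind the same cadherin on a neighbouring cell and are anchored to actin through catenins. Cdh1 (E-cadherin), Cdh2 (N-cadherin), Cdh3 (P-cadherin) and Cdh4 (R-cadherin) are type I cadherins, while Cdh6 (K-cadherin) and Cdh11 (OB-cadherin) are type II. The exchange of Cdh1 for Cdh2 is a known feature of epiblast cells that enter mesoderm or neural tube, and Cdh11 is known from mesenchyme. Non-clustered protocadherins are weaker adhesion molecules with their own cytoplasmic partners, and are known from somite formation and neural circuits. Pcdh7 belongs to their delta1 subgroup, and Pcdh8, Pcdh10 and Pcdh19 to delta2.

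Values are CPM, counts of a gene per 1000000 counts of its library. Depth was 3.43 to 9.88 M reads in 14 libraries, where 3 reads correspond to 0.304 to 0.874 CPM, and 0.799 M reads in FGF Sox2+ replicate 2, where 3 reads are 3.76 CPM. These limits cover counting error only. Tbxt 7 d replicate 1 stood apart from its group: 9.94 and 10.1% of tested genes were over 2-fold from replicates 2 and 3, against 1.64% between those replicates. Between both FGF Sox2+ libraries the share was 9.92%. Sox2 was at 164 to 241 CPM in NMPs, 217 to 221 in Sox2 48 h, 34.2 to 38.5 in Tbxt 48 h, 199 to 390 in the 7 d Sox2+ libraries, and 0 to 29.1 in DN libraries. The other reporter gene, Tbxt (listed as T), was at 284 to 445 CPM in NMPs, 216 to 222 in Tbxt 48 h, 29.3 to 32.1 in Sox2 48 h, and 4.88 to 15.4 in the 7 d Sox2+ libraries. It was at 20.4 CPM in FGF DN, above every 7 d Sox2+ library, at 1.14 in FGF/CHIR DN and at 0.396 to 2.11 in Tbxt 7 d. Differences are log2 fold changes of CPM + 1 with their standard error (SE), from 1 limma fit of all 15 libraries over 12943 genes, and a gene is called where its Benjamini-Hochberg adjusted p is under 0.05. The CPM + 1 scale understates changes of low genes. All 10 genes passed the filter of 5 CPM in 2 libraries, but Pcdh8 passed only through FGF Sox2+ and Pcdh10 only through FGF/CHIR DN and Tbxt 7 d, so a difference that sets these groups apart was built into their selection for testing. Groups with 1 library have no replicate check, and a p for them borrows the spread of the other groups. From Sox2 48 h to FGF Sox2+, time and medium change together and cannot be told apart. Tbxt 7 d and FGF Sox2+ differ in source, medium and sort gate at once.

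**Figure D1:**
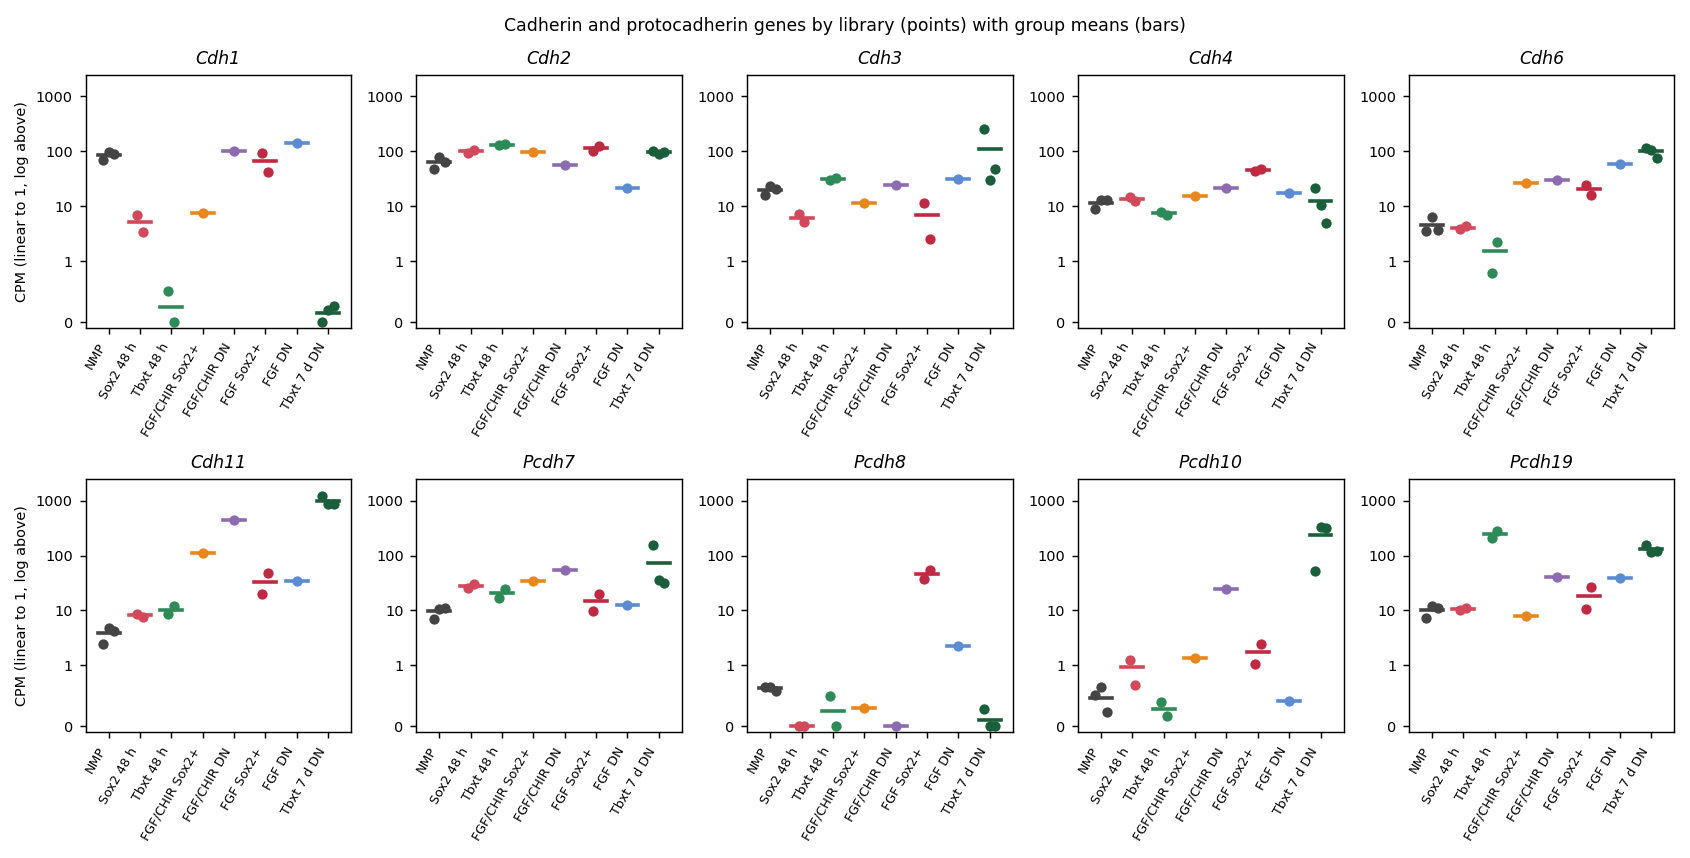
CPM of each of the 10 genes (vertical axis, linear up to 1 and logarithmic above) in the 8 sorted groups (horizontal axis), with 1 point per library and a bar at the group mean. Cdh1 drops to 0 to 0.506 CPM in Tbxt 48 h and Tbxt 7 d libraries, Cdh11 reaches 886 to 1211 CPM in Tbxt 7 d, Pcdh19 peaks at 212 to 284 CPM in Tbxt 48 h and Pcdh8 at 37.6 to 55.1 CPM in FGF Sox2+.

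Cdh1, the adhesion molecule of epithelia and of the epiblast, was high in NMPs, fell in both 48 h sorts, stayed at a few reads in the Tbxt-derived cells, and was high again in 3 of the 4 Sox2-derived populations at 7 d. In NMP replicates 1 to 3 it stood at 68.7, 95.7 and 87.7 CPM. It stood at 6.81 and 3.43 CPM in Sox2 48 h and at 0.506 and 0 CPM in Tbxt 48 h. These 3 groups did not overlap, and the Tbxt 48 h libraries together held 5 reads of Cdh1. Cdh1 fell by 3.84 ± 0.34 (log2, SE) from NMPs to Sox2 48 h (adjusted p = 2.94e-05) and fell by 6.10 ± 0.34 to Tbxt 48 h (adjusted p = 6.26e-07). With so few reads in Tbxt 48 h the latter size depends on the added 1 and ranged from -7.58 to -4.36 over the alternatives, and by pooled reads NMPs were 264-fold higher (95% interval 113 to 813). Both comparisons share the NMP libraries. The direct difference of Tbxt 48 h from Sox2 48 h was -2.26 ± 0.37 (adjusted p = 0.00456), a call that was lost without Tbxt 48 h replicate 2 (-1.97, adjusted p = 0.0849) and with a pseudocount of 4 (-1.08, adjusted p = 0.0677). By pooled reads Sox2 48 h was 15.9-fold higher (6.31 to 51.6). In bulk RNA, fewer Cdh1-expressing cells and less Cdh1 RNA per cell cannot be told apart.

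At 7 d, Cdh1 stood at 91.5 and 41.3 CPM in FGF Sox2+, 141 CPM in FGF DN and 101 CPM in FGF/CHIR DN, but at 7.40 CPM in FGF/CHIR Sox2+. FGF/CHIR Sox2+ was thus close to the Sox2 48 h libraries (difference 0.51, 95% interval -0.48 to 1.50, adjusted p = 0.702), while FGF Sox2+ lay 3.41 ± 0.37 above them (adjusted p = 5.73e-05). Without the shallow FGF Sox2+ replicate 2 that difference was 3.98. Tbxt 7 d libraries held 0, 0.198 and 0.263 CPM, which is 2 reads in all. By pooled reads, Cdh1 was 517-fold (95% interval 142 to 4284) higher in FGF Sox2+ and 622-fold (171 to 5151) higher in FGF/CHIR DN than in Tbxt 7 d, with adjusted p = 7.95e-08 and 3.06e-06. The step from Tbxt 48 h to Tbxt 7 d, 5 against 2 reads, gave a ratio of 1.94 (0.318 to 20.4).

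Among Sox2-derived cells at 7 d, Cdh1 was higher in DN than in Sox2+ cells by 2.39 ± 0.35 averaged over both media (adjusted p = 0.000653), with both DN libraries above all Sox2+ libraries. It was lower in FGF/CHIR than in FGF, with a difference of -1.69 ± 0.35 averaged over both gates (adjusted p = 0.00672), although the library ranges overlapped. The DN to Sox2+ difference was 3.61 in FGF/CHIR and 1.18 in FGF. The difference between these differences, 2.42 ± 0.70, did not pass the test (adjusted p = 0.0992), and did pass without FGF Sox2+ replicate 2 (2.99, adjusted p = 0.0353).

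The order of Cdh1 levels ran from FGF DN, FGF/CHIR DN, NMP and FGF Sox2+ to FGF/CHIR Sox2+, Sox2 48 h, Tbxt 48 h and Tbxt 7 d. Library ranges of NMP and FGF Sox2+ overlapped, as did those of Tbxt 48 h and Tbxt 7 d. Of the pluripotency, endoderm and surface ectoderm sums below, only the first set all libraries with high Cdh1 apart from the others. The summed CPM of 5 pluripotency markers (Pou5f1, Nanog, Zfp42, Utf1, Dppa5a) was 243 to 367 in NMPs, 345 in FGF/CHIR DN, 192 in FGF DN and 45.4 to 185 in FGF Sox2+, and 0.792 to 15.5 in the 4 groups with low Cdh1. In FGF/CHIR DN 4 of these 5 genes reached 5 CPM, and in FGF DN and FGF Sox2+ all 5 did. The sum of 7 endoderm markers was 247 in FGF/CHIR DN and 654 in FGF DN, with Sox17, Foxa2, Cubn and Gata4 over 5 CPM and Afp and Apoa1 at 0 in FGF/CHIR DN, while it was 2.21 to 12.5 in all other libraries. A surface ectoderm list (Krt8, Krt18, Krt14, Trp63, Grhl3) summed to 236 in FGF/CHIR DN, 783 in FGF DN and 220 to 284 in FGF Sox2+, and to 3.08 to 34.5 elsewhere, with Trp63 at 0 in FGF DN. In both DN libraries only Krt8 and Krt18 of this list reached 5 CPM, while in FGF Sox2+ Krt14 and Grhl3 did as well. The sums of the DN libraries therefore do not establish surface ectoderm. Which cells carried these markers, and their part in the Cdh1 levels, was not tested.

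**Figure D2:**
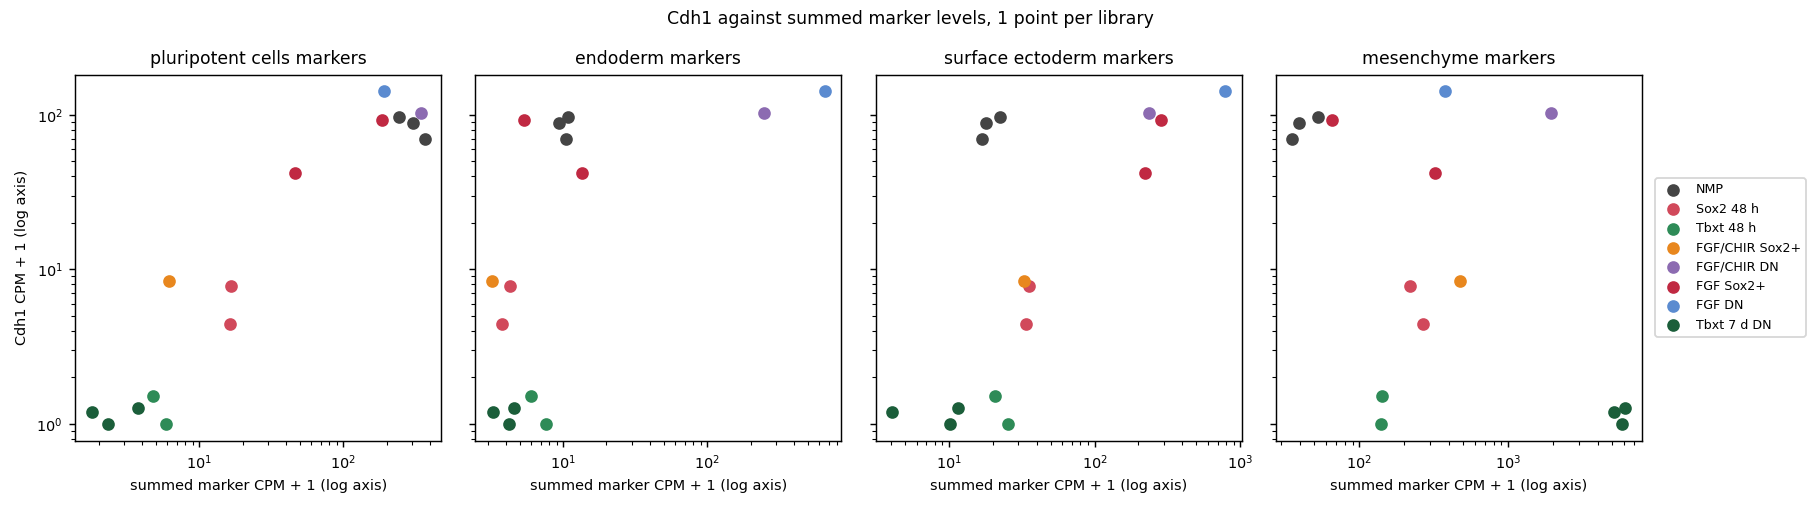
Cdh1 CPM + 1 (vertical log axis) against the summed CPM + 1 of 4 marker lists (horizontal log axes), with 1 point per library coloured by group. The 7 libraries with Cdh1 at 41.3 CPM or more are those with a pluripotency sum of 45.4 CPM or more, and both 7 d DN libraries of Sox2-derived cells also carry endoderm sums of 247 and 654 CPM.

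Cdh2, the cadherin of neural tube and paraxial mesoderm, varied much less than Cdh1. It stood at 47.6, 80.0 and 63.0 CPM in NMPs, at 94.6 and 105 CPM in Sox2 48 h and at 130 and 134 CPM in Tbxt 48 h. Both 48 h groups lay above every NMP library. Cdh2 rose by 1.07 ± 0.19 in Tbxt 48 h (adjusted p = 0.00187). The rise in Sox2 48 h was 0.67 ± 0.19 with adjusted p = 0.0458, and that call was lost in 12 of 22 alternative analyses. Among those were fits without NMP replicate 1 (0.48, adjusted p = 0.109) or 3 (0.68, 0.12), Sox2 48 h replicate 1 (0.74, 0.137) or 2 (0.60, 0.312), either Tbxt 48 h library (0.67, 0.0649 and 0.0652), or Tbxt 7 d replicate 2 or 3 (0.67, 0.0567 and 0.0625). The 48 h sorts differed by 0.40 ± 0.21 (95% interval -0.04 to 0.85, adjusted p = 0.304).

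At 7 d, Cdh2 was at 102, 87.8 and 97.4 CPM in Tbxt 7 d, 102 and 123 CPM in FGF Sox2+, 96.4 CPM in FGF/CHIR Sox2+, 56.9 CPM in FGF/CHIR DN and 21.0 CPM in FGF DN. Tbxt 7 d and FGF Sox2+ overlapped, with a difference of -0.23 (95% interval -0.64 to 0.18, adjusted p = 0.338). The 7 d Sox2+ groups lay 0.17 (-0.27 to 0.62, FGF) and -0.05 (-0.59 to 0.50, FGF/CHIR) from Sox2 48 h, and neither passed the test (adjusted p = 0.573 and 0.97). Cdh2 was lower in DN than in Sox2+ cells, with a difference of -1.55 ± 0.19 (adjusted p = 0.000183), and both DN libraries lay below every Sox2+ library. The difference was -0.75 in FGF/CHIR and -2.36 in FGF. From Tbxt 48 h to Tbxt 7 d it was -0.46 ± 0.19 with adjusted p = 0.0536, and 0.0191 to 0.0464 without NMP replicate 1, NMP replicate 2 or Tbxt 7 d replicate 1. Tbxt 7 d against FGF/CHIR DN gave 0.74 ± 0.24 (adjusted p = 0.0503, and 0.02 and 0.0274 without NMP replicate 1 or 2). The medium difference of 0.59 ± 0.19 had adjusted p = 0.0614, and 0.0236, 0.032 or 0.0439 without NMP replicate 1, NMP replicate 2 or Tbxt 7 d replicate 1.

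Within a library, the balance of both genes was described as the log2 ratio of Cdh2 CPM + 1 to Cdh1 CPM + 1, which is not corrected for gene length, so its zero has no meaning of its own and no test was made. The ratio was -0.52, -0.26 and -0.47 in NMPs. It was 3.61 and 4.58 in Sox2 48 h, 6.45 and 7.07 in Tbxt 48 h, and 6.69, 6.21 and 6.28 in Tbxt 7 d. The FGF/CHIR Sox2+ library, at 3.53, lay just below the Sox2 48 h libraries. FGF Sox2+ lay at 0.16 and 1.55, FGF/CHIR DN at -0.82 and FGF DN at -2.69, both DN libraries below every NMP library. The Sox2-derived 7 d libraries were thus spread from below the NMPs to the level of Sox2 48 h, while the Tbxt 7 d libraries stayed near Tbxt 48 h.

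**Figure D3:**
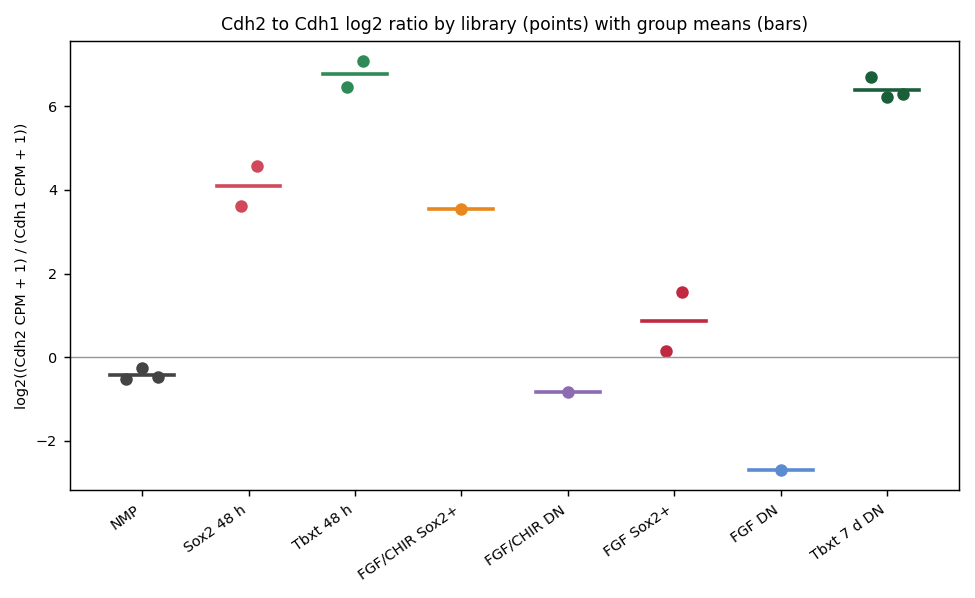
Log2 ratio of Cdh2 CPM + 1 to Cdh1 CPM + 1 (vertical axis) by group, with 1 point per library and a bar at the group mean. Tbxt-derived libraries lie at 6.21 to 7.07, Sox2 48 h and FGF/CHIR Sox2+ at 3.53 to 4.58, and NMPs and the other 7 d Sox2-derived libraries at -2.69 to 1.55.

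Cdh3, an epithelial type I cadherin, was called in 1 comparison. It stood at 15.7, 23.2 and 20.6 CPM in NMPs, 7.07 and 5.26 CPM in Sox2 48 h and 29.9 and 32.2 CPM in Tbxt 48 h. These groups did not overlap, yet the differences of -1.53 ± 0.80 (Sox2 48 h to NMP) and 2.17 ± 0.88 (Tbxt 48 h to Sox2 48 h) had adjusted p = 0.325 and 0.216. Tbxt 7 d held 258, 30.1 and 47.7 CPM, a range set by replicate 1, the library that stood apart, and the spread of the shared fit includes it. Without that library the same differences had adjusted p = 0.0344 and 0.0152. At 7 d Cdh3 was 11.3 and 2.50 CPM in FGF Sox2+ (the latter 2 reads), 30.7 CPM in FGF DN, 24.0 CPM in FGF/CHIR DN and 11.5 CPM in FGF/CHIR Sox2+, and the DN to Sox2+ difference was 1.64 ± 0.82 (adjusted p = 0.222, and 0.0204 without Tbxt 7 d replicate 1). It was higher in Tbxt 7 d than in FGF Sox2+ by 3.48 ± 0.80 (adjusted p = 0.00589), by 2.57 without Tbxt 7 d replicate 1 (adjusted p = 0.00067), by 4.10 without replicate 2, by 4.38 without FGF Sox2+ replicate 1 and by 2.58 without FGF Sox2+ replicate 2, where the call was lost (adjusted p = 0.0508).

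Cdh4, a type I cadherin of the developing nervous system, was highest in FGF Sox2+ at 44.6 and 47.6 CPM. It was 8.94, 13.2 and 12.8 CPM in NMPs, 14.9 and 12.3 CPM in Sox2 48 h, 7.90 and 6.92 CPM in Tbxt 48 h, and 15.1 to 21.0 CPM in the other 7 d Sox2-derived libraries. Tbxt 7 d ranged widely, at 21.3, 10.3 and 5.00 CPM. No library of another group reached the FGF Sox2+ level. Cdh4 rose from Sox2 48 h to FGF Sox2+ by 1.69 ± 0.44 (adjusted p = 0.0155), a call lost without Sox2 48 h replicate 2 (1.57, adjusted p = 0.102), FGF Sox2+ replicate 1 (1.74, 0.0555) or FGF Sox2+ replicate 2 (1.65, 0.0818). It was lower in Tbxt 7 d than in FGF Sox2+, with a difference of -2.04 ± 0.40 (adjusted p = 0.00133). From Tbxt 48 h to Tbxt 7 d it did not pass (0.45 ± 0.40, adjusted p = 0.367), but passed without Tbxt 7 d replicate 3 (0.92, adjusted p = 0.0255). Against FGF/CHIR DN, Tbxt 7 d lay at -0.94 ± 0.51 (adjusted p = 0.224), and at -1.42 without replicate 1 (adjusted p = 0.0094).

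The type II cadherins Cdh6 and Cdh11 were low at the start and rose by 7 d in both lineages, most in the Tbxt-derived cells. Cdh11, known from mesenchyme and bone-forming cells, stood at 2.46, 4.82 and 4.18 CPM in NMPs, 8.71 and 7.54 CPM in Sox2 48 h and 8.71 and 11.9 CPM in Tbxt 48 h. At 7 d it reached 1211, 886 and 888 CPM in Tbxt 7 d, 448 CPM in FGF/CHIR DN, 112 CPM in FGF/CHIR Sox2+, 33.8 CPM in FGF DN, and 19.7 and 47.6 CPM in FGF Sox2+. Every 7 d library lay above every 48 h library. Among the 7 d libraries, every FGF/CHIR library lay above every FGF library, though Tbxt-derived cells had no FGF group. Cdh11 rose by 6.46 ± 0.32 from Tbxt 48 h to Tbxt 7 d (adjusted p = 2.95e-08), by 3.63 ± 0.43 from Sox2 48 h to FGF/CHIR Sox2+ (adjusted p = 0.00161) and by 1.80 ± 0.35 from Sox2 48 h to FGF Sox2+ (adjusted p = 0.00355). The last was 2.42 without FGF Sox2+ replicate 1 and 1.19 without replicate 2, and remained called in both.

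Cdh11 was higher in Tbxt 7 d than in FGF Sox2+ by 4.96 ± 0.32 (adjusted p = 2.85e-07, and 4.34 or 5.57 without FGF Sox2+ replicate 1 or 2). In Sox2-derived cells at 7 d it was higher in FGF/CHIR than in FGF by 2.76 ± 0.33 (adjusted p = 0.000222). The DN to Sox2+ difference, 2.00 in FGF/CHIR and 0.13 in FGF, averaged 1.07 ± 0.33 and had adjusted p = 0.0513, and passed without NMP replicate 1 (0.0462), FGF Sox2+ replicate 2 (1.37, 0.00635) or Tbxt 7 d replicate 1 (0.0329). Tbxt 7 d and FGF/CHIR DN, which share time, medium and gate, differed by 1.13 ± 0.41 (95% interval 0.24 to 2.02, adjusted p = 0.0784, and 0.0239 or 0.0238 without FGF Sox2+ replicate 1 or 2). At 48 h Cdh11 was higher in Tbxt 48 h than in NMPs by 1.25 ± 0.32 (adjusted p = 0.0196), a call lost without NMP replicate 1 (1.03, 0.0755) or Tbxt 48 h replicate 2 (1.04, 0.21). In Sox2 48 h the difference was 0.95 ± 0.32 (adjusted p = 0.102, and 0.0289 or 0.0285 without FGF Sox2+ replicate 1 or 2). The summed CPM of 5 mesenchyme markers (Col1a1, Col3a1, Pdgfra, Twist1, Postn) ran alongside, at 5101 to 6084 in Tbxt 7 d, 1938 in FGF/CHIR DN, 475 in FGF/CHIR Sox2+, 378 in FGF DN, 64.5 to 321 in FGF Sox2+ and 34.5 to 266 before 7 d, and its part in the Cdh11 levels was not tested.

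Cdh6, a type II cadherin known from kidney, neural crest and parts of the nervous system, stood at 3.50, 6.27 and 3.72 CPM in NMPs, 3.79 and 4.34 CPM in Sox2 48 h and 0.810 and 2.19 CPM in Tbxt 48 h. Only the Tbxt 48 h libraries lay below the NMP range. The fall in Tbxt 48 h was -1.16 ± 0.30 (adjusted p = 0.0184), lost without NMP replicate 2 (-0.94, adjusted p = 0.0558) or Tbxt 48 h replicate 1 (-0.75, 0.161), with a pseudocount of 4 (-0.62, 0.0735) and with quantile normalization (-0.76, 0.134). At 7 d Cdh6 was 116, 105 and 76.6 CPM in Tbxt 7 d, 58.0 CPM in FGF DN, 29.5 CPM in FGF/CHIR DN, 26.0 CPM in FGF/CHIR Sox2+, and 24.3 and 16.3 CPM in FGF Sox2+. All 7 d libraries lay above all earlier ones. Cdh6 rose by 5.36 ± 0.30 from Tbxt 48 h to Tbxt 7 d (adjusted p = 4.03e-08), by 2.05 ± 0.33 to FGF Sox2+ (adjusted p = 0.000834) and by 2.42 ± 0.40 to FGF/CHIR Sox2+ (adjusted p = 0.00893), both from Sox2 48 h, the last lost without Sox2 48 h replicate 1 (2.34, 0.0598). It was also higher in Tbxt 7 d than in FGF Sox2+ (2.24 ± 0.30, adjusted p = 6.21e-05) and than in FGF/CHIR DN (1.70 ± 0.38, adjusted p = 0.00985). Unlike Cdh11, its highest Sox2-derived library was FGF DN, and the medium difference of -0.29 ± 0.31 did not pass (95% interval -0.96 to 0.37, adjusted p = 0.571).

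Pcdh7, a delta1 protocadherin, was called in 1 comparison. It stood at 7.13, 10.8 and 11.0 CPM in NMPs, 25.7 and 30.6 CPM in Sox2 48 h, and 17.1 and 24.1 CPM in Tbxt 48 h. Both 48 h groups lay above every NMP library, with differences of 1.47 ± 0.58 (adjusted p = 0.178) and 1.03 ± 0.58 (adjusted p = 0.255). Without Tbxt 7 d replicate 1, which held 156 CPM against 35.2 and 31.3 CPM in replicates 2 and 3, these had adjusted p = 0.00276 and 0.0146. In Sox2-derived cells at 7 d, Pcdh7 was 54.9 CPM in FGF/CHIR DN, 34.0 CPM in FGF/CHIR Sox2+, 12.4 CPM in FGF DN, and 9.98 and 20.03 CPM in FGF Sox2+, so both FGF/CHIR libraries lay above all FGF libraries. That medium difference was 1.63 ± 0.60 (adjusted p = 0.102, and 0.001 without Tbxt 7 d replicate 1). Pcdh7 was higher in Tbxt 7 d than in FGF Sox2+ by 1.90 ± 0.58 (adjusted p = 0.0212), by 1.17 without Tbxt 7 d replicate 1 (adjusted p = 0.0048), and by 1.43 without FGF Sox2+ replicate 1, where the call was lost (0.151). From Tbxt 48 h to Tbxt 7 d the difference was 1.41 ± 0.58 (adjusted p = 0.0631), called without Tbxt 7 d replicate 2 (1.74, 0.0378) or 3 (1.82, 0.0234), and from Sox2 48 h to FGF Sox2+ it was -0.94 ± 0.64 (adjusted p = 0.312), called without Tbxt 7 d replicate 1 (0.0285).

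The 3 delta2 protocadherins each peaked in another population. The 250 bases before their annotated start are shown so that these unlike profiles can be read beside the sequence upstream of each gene (RefSeq, GRCm38.p6, an earlier build than the GRCm39 used for the CPM table, written 5′ to 3′ in the direction of the gene). Such windows were found for 5 of the 10 genes: Cdh6, Pcdh7, Pcdh8, Pcdh10 and Pcdh19. Capitals mark the CCAAT box (CCAAT or ATTGG) and the TATA box (TATAAA or TTTATA), searched on both strands and added after the sequences had been seen.
Pcdh8 (chr14:79771313-79771562, minus strand): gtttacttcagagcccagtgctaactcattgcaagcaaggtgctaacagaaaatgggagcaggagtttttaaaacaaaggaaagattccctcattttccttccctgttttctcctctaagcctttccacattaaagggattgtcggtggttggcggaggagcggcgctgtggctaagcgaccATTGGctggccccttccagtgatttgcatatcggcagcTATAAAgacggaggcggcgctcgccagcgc
Pcdh10 (chr3:45378148-45378397, plus strand): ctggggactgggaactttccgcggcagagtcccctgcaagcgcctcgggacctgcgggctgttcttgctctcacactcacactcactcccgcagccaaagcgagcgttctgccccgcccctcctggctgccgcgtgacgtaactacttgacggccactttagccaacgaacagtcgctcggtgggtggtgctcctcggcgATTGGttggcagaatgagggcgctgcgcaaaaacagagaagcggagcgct
Pcdh19 (chrX:133688994-133689243, minus strand): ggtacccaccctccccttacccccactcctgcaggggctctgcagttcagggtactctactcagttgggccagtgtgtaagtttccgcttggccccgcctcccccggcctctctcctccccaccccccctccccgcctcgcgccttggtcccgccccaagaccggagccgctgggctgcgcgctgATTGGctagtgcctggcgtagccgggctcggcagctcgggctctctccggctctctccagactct
Each of the 3 windows holds 1 CCAAT box, whose first base lies 68 (Pcdh8), 50 (Pcdh10) and 65 (Pcdh19) bases before the start, a motif found in 33.9% of 32851 windows of the same length. Pcdh8 alone of them also has a TATA box, 30 bases before its start, found in 12.4% of all windows. None of the 5 windows holds the E-box CACCTG or CAGGTG bound by Snail and Zeb repressors (17.2% of windows) or the T-box half-site AGGTGTGA or TCACACCT (1.12%). The TCF/LEF core CTTTGA or TCAAAG (13.8%) is in the Pcdh7 window, 235 bases before its start, and in none of the other 4. These matches describe letters only.

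Pcdh19, a delta2 protocadherin known from the nervous system and from X-linked epilepsy, marked the Tbxt 48 h sort. It stood at 7.26, 12.1 and 11.3 CPM in NMPs, 10.1 and 11.2 CPM in Sox2 48 h, and 212 and 284 CPM in Tbxt 48 h. Sox2 48 h lay within the NMP range, and both Tbxt 48 h libraries far above it. Pcdh19 rose by 4.49 ± 0.31 from NMPs to Tbxt 48 h (adjusted p = 4.98e-06) and stood 4.41 ± 0.34 above Sox2 48 h (adjusted p = 2.91e-05). The difference between Sox2 48 h and NMPs was 0.08 (95% interval -0.59 to 0.76, adjusted p = 0.924). At 7 d it remained high in Tbxt 7 d, at 156, 115 and 120 CPM, and the step from Tbxt 48 h of -0.92 ± 0.31 had adjusted p = 0.0247, a call lost without Tbxt 48 h replicate 2 (-0.71, 0.183) or Tbxt 7 d replicate 2 (-0.84, 0.0678) or 3 (-0.87, 0.0627). Among Sox2-derived cells it was 40.7 CPM in FGF/CHIR DN and 38.8 CPM in FGF DN, against 7.91 CPM in FGF/CHIR Sox2+ and 10.8 and 26.3 CPM in FGF Sox2+. DN cells were thus higher in both media (1.69 ± 0.32, adjusted p = 0.00426). Tbxt 7 d stood above FGF Sox2+ by 2.86 ± 0.31 (adjusted p = 1.47e-05, and 2.26 or 3.46 without FGF Sox2+ replicate 1 or 2) and above FGF/CHIR DN by 1.64 ± 0.39 (adjusted p = 0.0147). The step from Sox2 48 h to FGF Sox2+ was 0.63 ± 0.34 (adjusted p = 0.2), and 1.23 without FGF Sox2+ replicate 1 (adjusted p = 0.0161). The sum of 5 presomitic mesoderm markers (Tbx6, Msgn1, Dll1, Hes7, Rspo3) was 837 to 961 CPM in Tbxt 48 h, and 7.54 to 147 CPM elsewhere, including 16.9 to 24.0 CPM in Tbxt 7 d, where Pcdh19 was still at 115 CPM or more. The part of these cells in the Pcdh19 levels was not tested.

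Pcdh8, also called paraxial protocadherin, was detected mainly in FGF Sox2+. It stood at 0.648, 0.643 and 0.581 CPM in NMPs (14 reads in all), at 0 in both Sox2 48 h libraries, at 0.506 and 0 CPM in Tbxt 48 h, and at 37.6 and 55.1 CPM in FGF Sox2+. The other 7 d libraries held 2.27 CPM (FGF DN, 11 reads), 0.308 CPM (FGF/CHIR Sox2+, 3 reads), 0 (FGF/CHIR DN) and 0.291, 0 and 0 CPM (Tbxt 7 d, 1 read). Against 3 reads over both Sox2 48 h libraries, FGF Sox2+ was at least 111-fold higher (adjusted p = 2.54e-06), while the 14 reads of NMPs gave a ratio of at least 1.73 that did not pass (adjusted p = 0.268). Against Tbxt 7 d the ratio of pooled reads was 493 (95% interval 87.5 to 19550, adjusted p = 1.31e-07). No fold is given between groups at or under 3 reads per library, which include FGF/CHIR Sox2+, FGF/CHIR DN and Sox2 48 h. Pcdh8 was lower in DN than in Sox2+ cells (adjusted p = 0.00156, with overlapping library ranges, since FGF/CHIR Sox2+ was also at the floor) and lower in FGF/CHIR than in FGF (adjusted p = 6.16e-05, without overlap). Leaving out either FGF Sox2+ library removed Pcdh8 from the genes tested. Since Pcdh8 passed the filter only through FGF Sox2+, the differences that set this group apart describe its levels and support nothing. Neural progenitor markers (Sox1, Pax6, Sox3, Fabp7, Hes5) summed to 717 to 1126 CPM in FGF Sox2+, 90.2 CPM in FGF DN, 66.6 CPM in FGF/CHIR Sox2+ and 2.11 to 72.5 CPM elsewhere, and 5 neuron markers to 183 to 622 CPM in FGF Sox2+ and 11.5 to 147 CPM elsewhere. Their part in the Pcdh8 level was not tested.

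Pcdh10, a delta2 protocadherin known from forebrain axons, was at 0.518, 0.643 and 0.232 CPM in NMPs, 1.26 and 0.686 CPM in Sox2 48 h and 0.405 and 0.169 CPM in Tbxt 48 h. It reached 53.0, 334 and 322 CPM in Tbxt 7 d and 24.9 CPM in FGF/CHIR DN. The other Sox2-derived libraries at 7 d held 0.413 to 2.50 CPM. High levels were therefore found in the DN cells of FGF/CHIR cultures of either origin, and Tbxt 7 d replicate 1 was the lowest of its group. Pcdh10 rose by 7.13 ± 0.64 from Tbxt 48 h to Tbxt 7 d (adjusted p = 3.28e-06) and by 8.003 without that library. Tbxt 48 h held 5 reads in all, so the size depends on the added 1 and ranged from 5.43 to 8.42 over the alternatives. By pooled reads, 3090 against 5, the ratio was 795 (95% interval 340 to 2451), which weights the libraries by depth. It was higher in Tbxt 7 d than in FGF Sox2+ by 6.07 ± 0.64 (adjusted p = 1.57e-05, 6.93 without replicate 1), and 198-fold higher by pooled reads (96.0 to 493, 7 reads in FGF Sox2+). Since these differences set Tbxt 7 d apart, through which Pcdh10 passed the filter, they describe its levels and support nothing. Against FGF/CHIR DN the difference was 2.80 ± 0.81 (adjusted p = 0.0352), 3.67 without Tbxt 7 d replicate 1 (3.01e-05). That last call was lost without Tbxt 7 d replicate 2 (2.35, 0.0731) or 3 (2.37, 0.0823), any NMP library (0.0527 to 0.055) or either Tbxt 48 h library (0.0528 and 0.0531). The medium difference among Sox2-derived cells was 2.00 ± 0.65 (adjusted p = 0.0656, with overlap), and the DN to Sox2+ difference 1.27 ± 0.65 (adjusted p = 0.222), with adjusted p = 0.000482 and 0.0106 without Tbxt 7 d replicate 1, and 0.0488 for the medium without Tbxt 7 d replicate 2. Behind these averages, DN minus Sox2+ was 3.47 in FGF/CHIR and -0.93 in FGF, and FGF/CHIR minus FGF was 4.20 in DN and -0.20 in Sox2+ cells. Pcdh10 also passed the filter through FGF/CHIR DN, the high group in these contrasts. The medium and DN differences therefore describe its levels as well and support nothing.

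The counts of called members were read against the share of all tested genes called in the same direction. These counts include Pcdh8 and Pcdh10. Calls that set apart the groups through which these genes passed the filter were built into their selection for testing. In Sox2 48 h against NMPs 1 of the 10 genes was higher (Cdh2) and 1 lower (Cdh1), where 2.65% of tested genes were called higher and 5.27% lower. In Tbxt 48 h against NMPs 3 were higher (Cdh2, Cdh11, Pcdh19) and 2 lower (Cdh1, Cdh6), with backgrounds of 7.82 and 10.5%. Tbxt 48 h against Sox2 48 h gave Pcdh19 higher and Cdh1 lower, with 2.05 and 1.85%.

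Between 48 h and 7 d, 5 genes were higher and 0 lower in FGF Sox2+ (Cdh1, Cdh4, Cdh6, Cdh11, Pcdh8), where the background was 18.2% higher and 6.51% lower. The medium also changes in this comparison, from FGF/CHIR to FGF. There the median of all genes lay at 0.17, and another scaling moved the split of calls from 2361 higher and 842 lower to 1740 and 1356 (median of ratios) or 1463 and 1340 (quantile normalization). In FGF/CHIR Sox2+ 2 genes were higher (Cdh6, Cdh11) and 0 lower, with 1.64 and 0.170%, a median of 0.12, and splits of 212 and 22, 161 and 40, and 123 and 30 under the same scalings. Tbxt 7 d against Tbxt 48 h gave 3 higher (Cdh6, Cdh11, Pcdh10) and 1 lower (Pcdh19), with 30.7 and 23.5%, so the share of members was not above that of all genes. Its split of 3969 and 3045 became 2954 and 3751 with quantile normalization. The calls of Pcdh8 in FGF Sox2+ and of Pcdh10 in Tbxt 7 d were built into their selection for testing.

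Between the replicated 7 d end points, Tbxt 7 d and FGF Sox2+, 6 genes were higher (Cdh3, Cdh6, Cdh11, Pcdh7, Pcdh10, Pcdh19) and 3 lower (Cdh1, Cdh4, Pcdh8), with 21.1 and 26.5%. Source, medium and gate differ together between these groups. Cdh2 alone was not called, and the calls of Pcdh8 and Pcdh10 were built into their selection for testing. In Sox2-derived cells at 7 d, DN against Sox2+ gave 2 higher (Cdh1, Pcdh19) and 2 lower (Cdh2, Pcdh8), with 7.12 and 6.99%, a median of -0.10 over all genes, and a split of 921 and 905 that became 1171 and 651 by median of ratios. FGF/CHIR against FGF gave 1 higher (Cdh11) and 2 lower (Cdh1, Pcdh8), with 5.94 and 7.86%. Tbxt 7 d against FGF/CHIR DN gave 3 higher (Cdh6, Pcdh10, Pcdh19) and 1 lower (Cdh1), with 7.88 and 8.86%. In the DN and medium comparisons the Pcdh8 calls were built into its selection as well, so they support nothing. No member call changed direction under any scaling.

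The libraries that stood apart left the following member calls in place. Without Tbxt 7 d replicate 1, the step from Tbxt 48 h to Tbxt 7 d was 5.24 for Cdh6, 6.31 for Cdh11 and -1.05 for Pcdh19, and the difference from FGF/CHIR DN was 1.57 for Cdh6 and 1.51 for Pcdh19. Against FGF Sox2+, Tbxt 7 d differed by 2.12 (Cdh6), 4.81 (Cdh11), -2.51 (Cdh4) and 2.72 (Pcdh19) without that library. Without FGF Sox2+ replicate 2 the differences were 1.97 (Cdh6), -1.99 (Cdh4), 2.37 (Pcdh7) and 6.45 (Pcdh10). The step from Sox2 48 h to FGF Sox2+ was then 2.32 for Cdh6. Without the same library the DN to Sox2+ difference was 2.11 for Cdh1, -1.49 for Cdh2 and 1.99 for Pcdh19, and the medium difference was -1.97 for Cdh1 and 3.06 for Cdh11.

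**Figure D4:**
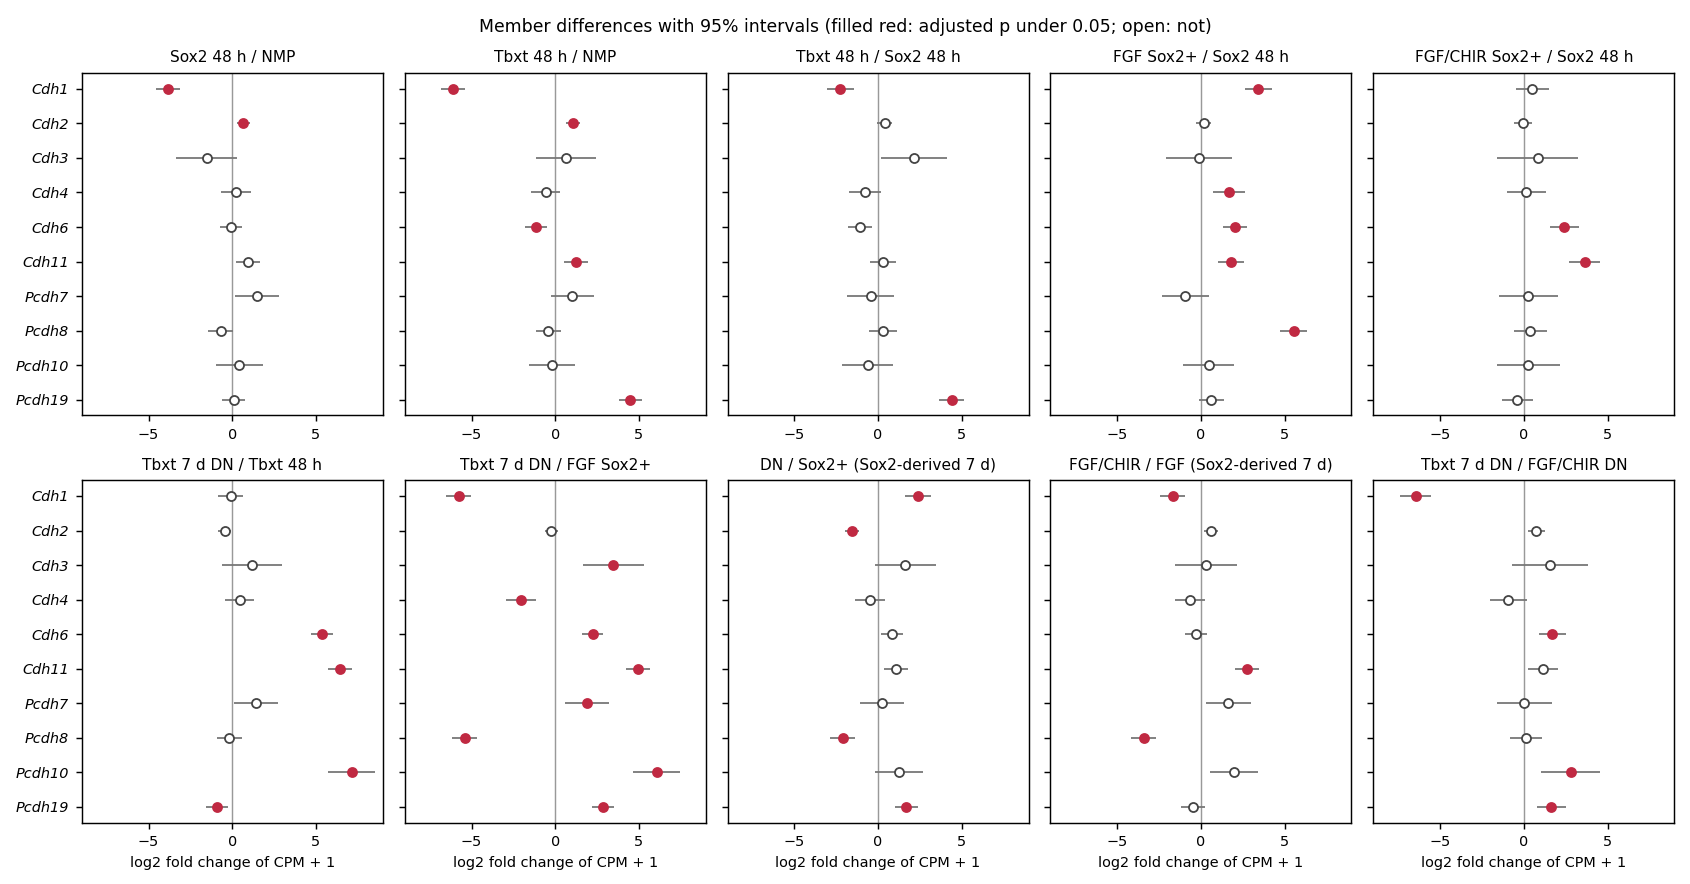
Log2 fold change of CPM + 1 (horizontal axis) of the 10 genes (vertical axis) in the 10 comparisons, with 95% intervals; filled points are called and open points are not. Cdh1 is called in 8 panels and Cdh2 in 3, and 9 of 10 genes are called between Tbxt 7 d and FGF Sox2+. Among those 9, the calls of Pcdh8 and Pcdh10 were built into their selection for testing. Points of Pcdh8, and of Cdh1 where Tbxt 48 h or Tbxt 7 d is compared, rest on a few reads on 1 or both sides. The same holds for Pcdh10, except between Tbxt 7 d and FGF/CHIR DN. The size of all these points depends on the added 1.

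A pair of differences of differences was tested after the values had been seen. Over all genes, 2.44% were called for the DN to Sox2+ difference between media, and 2 members were among them, Cdh2 (1.61 ± 0.38, adjusted p = 0.0465) and Pcdh8 (adjusted p = 0.024). The Cdh2 call was lost in fits without NMP replicate 3, either Sox2 48 h library, either Tbxt 48 h library, FGF Sox2+ replicate 2 or Tbxt 7 d replicate 2 or 3 (1.48 to 1.61, adjusted p = 0.0621 to 0.117). Pcdh8 had passed the filter only through FGF Sox2+, and both FGF/CHIR gates held 3 reads or fewer, so its difference followed from its selection and is given as a description. Its call was lost in 5 of 19 alternatives, a pseudocount of 0.25 (adjusted p = 0.338), a filter at 20 CPM (0.0672), a 2-fold minimum (0.222), the compared groups alone (0.153) and without NMP replicate 3 (0.0502). Besides Cdh1, 2 members not called were called in alternatives. Pcdh10 (4.40) had adjusted p = 0.00116 without Tbxt 7 d replicate 1 and 0.00125 with array weights. Since Pcdh10 passed the filter through FGF/CHIR DN, which this contrast sets apart, these values support nothing. Cdh11 (1.86, adjusted p = 0.193) had 0.0238 without FGF Sox2+ replicate 1 (2.48) and 0.0106 with array weights, and Cdh1 had 0.00532 with array weights. For the step from 48 h to 7 d in FGF/CHIR, Tbxt-derived DN against Sox2-derived Sox2+ cells, 16.3% were called, and 3 members were among them. Those were Cdh6 (2.94 ± 0.50, adjusted p = 0.00209), Cdh11 (2.83 ± 0.54, adjusted p = 0.00463) and Pcdh10 (6.88 ± 1.07, adjusted p = 0.00162), whose step was larger in the Tbxt-derived cells, and these were 2.82, 2.68 and 7.74 without Tbxt 7 d replicate 1. For Pcdh10, which passed the filter only through FGF/CHIR DN and Tbxt 7 d, that is a description as well. That contrast holds 1 library for FGF/CHIR Sox2+ and sets DN beside Sox2+ cells, so source and gate cannot be told apart.

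Of the adhesion partners, catenins link cadherins to actin, and 8 of 9 listed were tested. In FGF Sox2+ against Sox2 48 h 7 of 8 were higher and none lower (Arvcf, Ctnna1, Ctnna2, Ctnnb1, Ctnnd1, Ctnnd2, Jup), where 18.2% of all tested genes were higher and 6.51% lower, with a median log2 change of 0.96 against 0.17 over all genes, also with Ctnna2 at its bound. With median-of-ratios scaling 5 were higher, and with quantile normalization 6. Jup (plakoglobin) rose from 9.37 and 10.1 CPM to 43.8 and 56.9 CPM (2.25 ± 0.27, adjusted p = 0.000103). In Tbxt 7 d against Tbxt 48 h 5 of 8 were higher and Pkp4 lower, where 30.7% of all genes were higher and 23.5% lower, with Jup up by 3.73 ± 0.24 (adjusted p = 1.3e-07) and a median of 0.63 against 0.09. In Sox2 48 h against NMPs none of 8 was called, where 2.65% of all genes were higher and 5.27% lower. In Tbxt 48 h against NMPs Jup (-1.40 ± 0.24, adjusted p = 0.00178) and Arvcf were lower, against 10.5% of all genes. Without Tbxt 48 h replicate 2 the Arvcf difference was -0.80 and was not called.

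Nectins and afadin, a second adhesion system of cell junctions, had 4 of 5 genes tested. In Tbxt 7 d against Tbxt 48 h, Afdn (-1.13 ± 0.17), Nectin3 (-1.08 ± 0.18) and Nectin1 (lost without Tbxt 48 h replicate 1, -0.62, adjusted p = 0.101) were lower and Nectin2 higher, with a median of -0.94 and the same background of 23.5% lower and 30.7% higher. Nectin2 was the one gene of this list called in both 48 h sorts against NMPs, where it fell by 1.26 ± 0.20 in Sox2 48 h and fell by 1.50 ± 0.20 in Tbxt 48 h. Of all tested genes 5.27 and 10.5% were lower in these comparisons. Of the large cadherins 6 of 9 were tested. Fat4 (4.99 ± 0.44) and its ligand Dchs1 (3.10 ± 0.28) rose from Tbxt 48 h to Tbxt 7 d, while Celsr1, a planar polarity cadherin, fell by 3.19 ± 0.24. There 30.7% of all genes were higher and 23.5% lower. Celsr2 rose from Sox2 48 h to FGF Sox2+ by 2.78 ± 0.39, and DN cells were lower than Sox2+ cells in Celsr1 (-2.49 ± 0.24), Celsr2 (-2.57 ± 0.37) and Fat3 (-1.73 ± 0.21). Of all tested genes 18.2% were higher in the former comparison and 6.99% lower in the latter.

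Of 7 other non-clustered protocadherins 4 were tested. Pcdh1 fell along with Cdh1 at 48 h, from 23.0 to 34.0 CPM in NMPs to 1.83 and 3.53 CPM in Sox2 48 h (-2.99 ± 0.29, adjusted p = 5.89e-05) and 1.86 and 2.02 CPM in Tbxt 48 h (-3.27 ± 0.29, adjusted p = 1.8e-05), and rose from Sox2 48 h to FGF Sox2+ (1.65 ± 0.32, adjusted p = 0.003). From Tbxt 48 h to Tbxt 7 d 2 of the 4 were higher and 1 lower (30.7 and 23.5% of all genes). Pcdh9 rose from 0.169 to 0.506 CPM to 12.8 to 18.2 CPM (3.59 ± 0.48, adjusted p = 5.2e-05), Pcdh18 rose by 1.60 ± 0.28 and Pcdh1 fell to 0 to 0.291 CPM, 1 read in all (adjusted p = 0.00124). Of 13 other classical cadherins 2 were tested, and 1 of them, Cdh24, was higher in Tbxt 7 d than in Tbxt 48 h (1.92 ± 0.28), against 30.7% of all genes.

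The known transcriptional repressors of Cdh1 (Snai1, Snai2, Zeb1, Zeb2, Twist1, Twist2) were all tested, and Twist1 is also a mesenchyme marker above. At 48 h, Snai1 stood at 3.24 to 6.27 CPM in NMPs, 1.51 and 1.83 CPM in Sox2 48 h, and 87.1 and 109 CPM in Tbxt 48 h, so it rose in Tbxt 48 h (4.02 ± 0.25, adjusted p = 1.39e-06) while Cdh1 was low in both sorts. Zeb1 was the other gene of 6 called higher there (1.44 ± 0.32, adjusted p = 0.00894), from 11.9 to 16.7 CPM to 35.6 and 46.7 CPM, lost without Tbxt 48 h replicate 2 (1.25, 0.125), against 7.82% of all genes higher. In Sox2 48 h 1 of 6 was called, Snai1 (-1.19 ± 0.25, adjusted p = 0.0117), and not without NMP replicate 3 (-1.06, 0.0552) or Sox2 48 h replicate 1 (-1.10, 0.0979) or 2 (-1.27, 0.0781). At 7 d, Snai1 was highest in FGF DN at 149 CPM, with 82.3 CPM in FGF/CHIR DN and 69.0 to 99.0 CPM in Tbxt 7 d, against 8.76 to 14.1 CPM in Sox2+ libraries. The DN libraries of Sox2-derived cells therefore held both high Snai1 and high Cdh1. Whether the same cells held both cannot be told from bulk RNA. From Sox2 48 h, Snai1 rose by 2.02 ± 0.28 in FGF Sox2+ (adjusted p = 0.00029), where Cdh1 rose as well. The Snai1 rise in FGF/CHIR Sox2+ (1 library) was 2.50 ± 0.34. In these steps 18.2 and 1.64% of all genes were higher. Zeb2 was also called higher in FGF Sox2+ (0.81 ± 0.25, adjusted p = 0.035) and Twist1 in FGF/CHIR Sox2+ (2.49 ± 0.50). Both calls were lost without NMP replicate 3. Of the 6 genes, DN against Sox2+ called Snai1 higher (3.13 ± 0.26, adjusted p = 6.3e-06) and Zeb2 lower (-0.82 ± 0.24, adjusted p = 0.0369, with overlapping library ranges), against 7.12 and 6.99% of all genes. The Zeb2 call was lost without NMP replicate 3, either Tbxt 48 h library or FGF Sox2+ replicate 2 (-0.82 to -0.71, adjusted p = 0.0504 to 0.0951), and Zeb2 was named after its values were seen. From Tbxt 48 h to Tbxt 7 d 3 of 6 rose, Twist1 (6.98 ± 0.37), Snai2 (4.44 ± 0.53, and 3.83 without Tbxt 7 d replicate 1) and Twist2 (3.82 ± 0.67, and 4.67 without replicate 1 or 3.21 without replicate 3), with a median of 2.11 against 0.09 over all genes, of which 30.7% were higher.

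Genes with profiles most like 4 of the members were found by Pearson correlation of log2(CPM + 1) over the 8 group means among 9126 genes, as a description over few points that share libraries. Closest to Cdh1 were Epcam (0.987), Tfcp2l1 (0.982) and St14 (0.979). Closest to Cdh2 were Rbm22 (0.986), Psmg4 (0.985) and Myo5a (0.981). Closest to Cdh11 were Sertad4 (0.987), Nfic (0.984) and St3gal2 (0.983), and to Pcdh8 Gm54109, Msx3 (both 0.993) and Glra1 (0.991). Among the members themselves the highest value was that of Cdh11 and Pcdh10 (0.880) and the lowest that of Cdh1 and Cdh2 (-0.684).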

How the data were processed

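RNA was measured in 15 libraries of 8 sorted groups. Per the labels' protocols, RNA was extracted with beads and reverse transcribed from oligo-dT primers carrying a UMI, and libraries were made by tagmentation. Per the submitters' processing notes, STAR 2.7, SAMtools 1.21 and the GRCm39 build were used; for annotation, counting and UMI handling nothing is stated in those notes or labels. In the table the authors deposited, values are CPM that sum to 1000000 in each library. Rows without a gene name (21909, 1.10 to 1.81% of CPM) and 92 ERCC rows were dropped, and 627 rows sharing 311 symbols were summed. Whole reads could not be recovered (71.1 to 78.7% of values were whole within 0.01 reads), so reads per group are approximate and no count test was run.

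Values were tested as log2(CPM + 1) of the deposited CPM in 1 limma 3.58.1 fit (R 4.3.3, trend and robust, 8 group means, 7 residual degrees of freedom), with genes at 5 CPM or more in 2 libraries kept (12943) and Benjamini-Hochberg adjustment over all of them per comparison, at 0.05. The fit was also run on simulated libraries with 200 changed genes and a dispersion of 0.01. That dispersion was not fitted to these libraries, so the run does not vouch for the p-values given here. There were 10 comparisons, and 2 differences of differences were added after seeing the data. Intervals of read ratios are exact 95% intervals and cover counting error only. The rule named every member and, from each list, at most the 3 called genes with the largest differences whose libraries did not overlap; further list genes behind a count were named after their values were seen. The members and lists were chosen with earlier results of these data known. Alternatives were other pseudocounts, filters, scalings, array weights, a 2-fold minimum, a replicate block, the compared groups alone and each replicate left out. Promoter windows are from RefSeq (GRCm38.p6). Python 3.11.15, pandas 2.3.3 and scipy 1.17.1 were used.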

Additional observations from a re-analysis of the deposited data

Results flagged for a closer look

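For 5 results, a test of the difference between groups passed the threshold in the limma fit over all genes. The DN to Sox2+ difference in Cdh2 was 1.611 ± 0.38 higher in FGF/CHIR than in FGF (adjusted p = 0.0465), since it was -0.75 in FGF/CHIR and -2.36 in FGF, and this call was lost in 11 of its 21 alternatives. The same difference in Pcdh8 was 3.443 ± 0.70 higher in FGF/CHIR (adjusted p = 0.024), where both gates were at 3 reads or fewer, so its size depends on the added 1. Pcdh8 passed the filter only through FGF Sox2+, so this difference followed from its selection for testing and supports nothing, and its call was lost in 5 of 19 alternatives. The step from 48 h to 7 d in FGF/CHIR was larger in Tbxt-derived DN than in Sox2-derived Sox2+ cells for Cdh11 (2.832 ± 0.54, adjusted p = 0.00463), Cdh6 (2.944 ± 0.50, adjusted p = 0.00209) and Pcdh10 (6.876 ± 1.07, adjusted p = 0.00162). Pcdh10 passed the filter only through FGF/CHIR DN and Tbxt 7 d, so its value too is a description. Each of these contrasts includes groups with 1 library.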

How the results depend on the processing

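Of 100 member results 40 were called, 19 of them under every alternative in which they were tested. Of the other results 35 were called under no alternative that tested them, and 0 changed direction. Pcdh8 could not be tested when an FGF Sox2+ library was left out. The 40 include calls of Pcdh8 and Pcdh10 that were built into their selection for testing. The numbers of members called moved as follows. For Sox2 48 h against NMPs, 2 became 1 with no filter, 1 with a 2-fold minimum, 6 with array weights and 4 with the compared groups alone, and 1 to 4 when a replicate was left out. For Tbxt 48 h, 5 became 2 against NMPs with a 2-fold minimum, and 2 against Sox2 48 h became 1 with a pseudocount of 4 or a 2-fold minimum, 4 with array weights and 1 to 3 without a replicate. For FGF Sox2+ against Sox2 48 h 5 became 2 with a 2-fold minimum and 3 to 6 without a replicate, and for FGF/CHIR Sox2+ 2 became 1 with a 2-fold minimum or the groups alone, and 1 to 2 without a replicate. For DN against Sox2+ 4 became 8 with array weights, 0 with a 2-fold minimum and 3 to 7 without a replicate. For FGF/CHIR against FGF 3 became 6 with array weights and 2 to 6 without a replicate. For Tbxt 7 d against FGF/CHIR DN 4 became 7 with array weights, 1 with a 2-fold minimum and 2 with the groups alone. With the groups alone, the filter was applied anew to the compared libraries. Cdh1 was then not tested in Tbxt 7 d against FGF/CHIR DN, nor Cdh6 in FGF/CHIR Sox2+ against Sox2 48 h. Those calls are missing from the counts because of the filter. The mean Cdh2 to Cdh1 log2 ratio was 8.25 and 5.00 in Tbxt 48 h and 7.96 and 4.58 in Tbxt 7 d with pseudocounts of 0.25 and 4, and 3.14 in FGF/CHIR Sox2+ with 4. The causes of the other changes were not tested.

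What same-numbered libraries share is not stated in the labels (21 pairs, correlation of deviations -0.188 to 0.48, 4 over 0.1). For replicates 1 and 2 of NMP and Tbxt 48 h it was 0.48 and 0.457 at the same number, and -0.48 and -0.457 with the numbers crossed. Deviations in groups of 2 libraries mirror each other, so the pairs are not independent and cannot settle whether libraries were paired. A fit with the replicate number as a block, over 12 libraries, called 1 member (Cdh1) for Sox2 48 h against NMPs and changed no other member call of the 60 it could test.

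Counts over all genes moved more. Array weights raised them from 1025 to 3510 (Sox2 48 h against NMPs), 2376 to 4834 (Tbxt 48 h against NMPs), 505 to 1221 (Tbxt 48 h against Sox2 48 h), 234 to 1409 (FGF/CHIR Sox2+ against Sox2 48 h), 1826 to 4032 (DN against Sox2+), 1786 to 3908 (FGF/CHIR against FGF) and 2167 to 5592 (Tbxt 7 d against FGF/CHIR DN). A 2-fold minimum lowered the same counts to 106, 206, 57, 16, 184, 199 and 223, and those of FGF Sox2+ against Sox2 48 h from 3203 to 442, Tbxt 7 d against Tbxt 48 h from 7014 to 1628 and against FGF Sox2+ from 6161 to 1282. With the compared groups alone, 2167 became 274, 505 became 1135 and 234 became 479. With a replicate left out the lowest counts were 315 without Sox2 48 h replicate 2 (against NMPs), 702 and 124 without Tbxt 48 h replicate 2 (against NMPs and Sox2 48 h), 87 without Sox2 48 h replicate 1 (FGF/CHIR Sox2+), 1453 without Sox2 48 h replicate 2 (FGF Sox2+) and 1367 without Tbxt 7 d replicate 3 (against FGF/CHIR DN). Leaving out Tbxt 7 d replicate 1 gave the highest count in every comparison, from 495 to 7220. Depth limits values of a few reads, above all in FGF Sox2+ replicate 2.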
